A study of Sus scrofa with 4 samples.

Results

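The let-7 family and miR-98 were followed in small RNA libraries of the piglet hippocampus. Members were the rows of the deposited table of annotated pig miRNAs named let-7 or miR-98, on either arm, which gave 9 of 326 rows. Of these rows, 8 are guide arms (let-7a, let-7c, let-7d-5p, let-7e, let-7f, let-7g, let-7i and miR-98) and the other is let-7d-3p. A second deposited table of conserved miRNA sequences from many species, with 96 of 2791 rows entered under the let-7 family, was used to check how reads were divided between near-identical members. In all, 8 newborn piglets of 1 litter of the Chinese breed Rongchang, with genotype given as wild type, were divided into groups of 4 with the same sex ratio. Iron-treated piglets were given iron dextran, iron bound to a sugar polymer and meant here to induce oxidative stress, as 200 mg into muscle on day 3 and day 4 after birth, and the control group was injected with nothing. Each region was dissected apart and its tissue pooled within a group, and the labels do not say how many piglets entered a pool, how old they were at sampling or that controls had a vehicle injection. The groups are iron ventral, control ventral, iron dorsal and control dorsal, with 1 pooled library each. The spread between piglets was therefore not measured.

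MicroRNAs are short RNAs cut from hairpin precursors. One arm, the guide, is loaded into an Argonaute protein and finds messenger RNAs mainly through its seed, bases 2 to 8 counted from 1 at the 5′ end, while the other arm is mostly degraded. The let-7 family shares 1 seed among several genes, accumulates as neural precursors differentiate, and represses growth and stem cell genes such as LIN28, HMGA2 and, first shown in worms, the lin-41/TRIM71 gene. LIN28 in turn blocks maturation of let-7 precursors.

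The sequences are shown because the members differ in so few bases that reads can be shared between them. They come from the deposited table of conserved sequences, with the seed in capitals. The pig entry of let-7i is 19 bases long, and its 22-base form is listed there for other species. let-7b has no pig entry and no row among the annotated pig miRNAs.
let-7a: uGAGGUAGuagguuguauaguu
let-7c: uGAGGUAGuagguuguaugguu
let-7e: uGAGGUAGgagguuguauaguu
let-7f: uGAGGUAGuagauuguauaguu
let-7d-5p: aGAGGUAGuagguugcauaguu
miR-98: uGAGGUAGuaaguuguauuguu
let-7g: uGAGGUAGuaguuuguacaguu
let-7i, pig entry: uGAGGUAGuaguuugugcu
let-7i, 22-base form: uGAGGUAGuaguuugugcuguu
let-7b, no pig entry: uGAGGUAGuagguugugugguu
let-7d-3p: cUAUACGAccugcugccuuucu

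All 8 annotated guide arms and let-7b carry the seed GAGGUAG, while let-7d-3p carries UAUACGA. Relative to let-7a, let-7c differs by A19G, let-7e by U9G and let-7f by G12A, 1 base each. let-7d-5p differs by U1A and U16C, miR-98 by G11A and A19U, let-7b by A17G and A19G, and let-7g by G12U and U18C. let-7i differs from let-7a at 4 bases (G12U, A17G, U18C and A19U), and shares G12U and U18C with let-7g. Outside the family, miR-202 is often grouped with let-7, but the pig miR-202-3p in the same table carries the seed GAGGUGU, and in the annotated table it had 1 read in iron ventral and 0 reads in the other libraries.

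The libraries held 11396809 to 13839556 annotated reads once rows repeating the same reads were merged, so a count of 0 allows up to 0.207 to 0.282 CPM, 3 reads in a library. CPM here is a read count scaled to a common library size by TMM, which takes that size from the bulk of miRNAs. Neuronal miRNAs (miR-9, miR-124 and miR-128, 3 of 3 markers found) summed to between 226513 and 254489 CPM. Oligodendrocyte miRNAs (2 of 2 markers) summed to 13906 CPM in iron ventral, 10264 CPM in control ventral, 8812 CPM in iron dorsal and 11503 CPM in control dorsal. Of 6 markers listed as epithelial, 4 were found (miR-182, miR-183, miR-96-5p and miR-429), without miR-200 and miR-141. These 4 summed to 457 CPM in control ventral and to between 127 and 153 CPM elsewhere. Lacking miR-200 and miR-141, this sum does not establish that epithelial tissue was present. Erythroid sums (3 of 3 markers) lay between 837 and 1075 CPM, muscle sums (4 of 4) between 175 and 282 CPM, and the choroid plexus marker miR-204, 1 of 2 listed, between 164 and 253 CPM. The part of these cell types in the results was not tested. In bulk tissue, fewer cells of a type and less RNA per cell cannot be told apart.

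The family was abundant in every library and its summed level moved little. It made up 7.52% of annotated reads in iron ventral, 7.26% in control ventral, 7.96% in iron dorsal and 8.02% in control dorsal. In scaled units the family sum was 75022 CPM in iron ventral against 69356 CPM in control ventral, and 85190.2 CPM in iron dorsal against 78652 CPM in control dorsal. The order of levels was thus iron dorsal, control dorsal, iron ventral, control ventral, with dorsal above ventral in both treatments. All 9 members were among the 251 of 321 merged miRNAs that reached 10 CPM in at least 1 library, and 6 of the 9 ranked in the top 50 in every library.

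let-7a, the member whose mature sequence is the same from worms to mammals, was the most abundant. It had 21416 CPM in iron ventral against 20082 CPM in control ventral, and 23491 CPM in iron dorsal against 24673 CPM in control dorsal. let-7c had 15845 CPM in iron ventral against 14478 CPM in control ventral, and 16107 CPM in iron dorsal against 17079 CPM in control dorsal. Both were highest in control dorsal and lowest in control ventral, so that iron lay above control in ventral and below control in dorsal hippocampus.

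let-7f had 12189.9 CPM in iron ventral against 10738 CPM in control ventral, and 13897 CPM in iron dorsal against 12059 CPM in control dorsal. let-7g had 11599 CPM in iron ventral against 10529.9 CPM in control ventral, and 15149 CPM in iron dorsal against 10704 CPM in control dorsal. let-7i had 8799 CPM in iron ventral against 8344 CPM in control ventral, and 11096 CPM in iron dorsal against 8621 CPM in control dorsal. All 3 were highest in iron dorsal and lowest in control ventral, and for let-7g and let-7i the iron dorsal library stood above 3 others that lay close together.

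let-7e had 2648 CPM in iron ventral against 2469 CPM in control ventral, and 2771 CPM in iron dorsal against 2722 CPM in control dorsal. miR-98, which carries the let-7 seed under another name, had 1813 CPM in iron ventral against 2028 CPM in control ventral, and 1895 CPM in iron dorsal against 1981 CPM in control dorsal. let-7d-5p had 656 CPM in iron ventral against 622 CPM in control ventral, and 718 CPM in iron dorsal against 753 CPM in control dorsal. Among the guide arms, miR-98 alone was highest in control ventral and had both iron libraries below both control libraries with TMM scaling. let-7d-3p, the passenger arm of let-7d, was the least abundant, with 55.6 CPM in iron ventral against 66.2 CPM in control ventral, and 66.2 CPM in iron dorsal against 60.7 CPM in control dorsal.

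**Figure D1:**
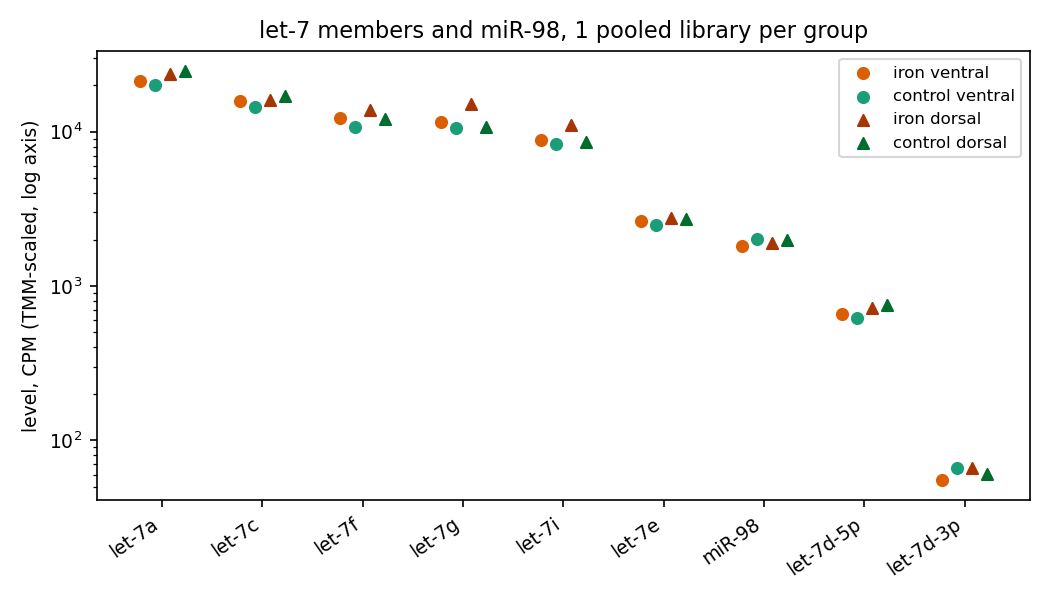
Level of each let-7 member and of miR-98 in the 4 pooled libraries, in TMM-scaled CPM on a log axis, with circles for ventral and triangles for dorsal hippocampus. The 5 highest members lie between 8344 and 24673 CPM, let-7d-3p lies near 60 CPM, and let-7g in iron dorsal stands above its other 3 libraries.

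The ratio of the highest to the lowest library ran from 1.12 for miR-98 and let-7e to 1.44 for let-7g. Of the 9 members, 8 had a smaller ratio than the median measured miRNA, at 1.33. let-7i, at 1.330, lay barely under that median of 1.333. The median covers miRNAs down to 10 CPM, where counting error is larger, and was not matched for abundance. It therefore does not show the family to be unusually stable.

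In ventral hippocampus, iron over control, 7 of 9 members had a ratio above 1, compared with 51.4% of measured miRNAs. The family sum ratio was 1.08, with an exact conditional binomial (Clopper-Pearson) 95% interval of 1.08 to 1.08. Such intervals cover counting error only, and amplified reads are not independent molecules, so they compare these libraries and not the conditions. The guide arms above 1 lay between 1.05 for let-7i and 1.14 for let-7f (1.13 to 1.14), with let-7a at 1.07, let-7c at 1.09 and let-7g at 1.10. miR-98, at 0.894 (0.879 to 0.910), and let-7d-3p, at 0.839 (0.759 to 0.926), were lower in iron. A member was counted as called when its interval excluded 1 and its ratio was at least 25% higher (or 20% lower, the same fold), and separately at least 2-fold. Past the 25% limit 0 of 9 members were called, where 10.4% of measured miRNAs were called higher and 13.1% lower. Past 2-fold 0 of 9 were called, where 0.398% of measured miRNAs were called higher and 1.59% lower.

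In dorsal hippocampus, iron over control, the members spread apart. let-7g, at 1.42 (1.41 to 1.43), and let-7i, at 1.29 (1.28 to 1.30), had the highest ratios and let-7f followed at 1.15 (1.14 to 1.16). let-7a, at 0.952 (0.947 to 0.957), let-7c, at 0.943 (0.937 to 0.949), miR-98, at 0.957 (0.939 to 0.975), and let-7d-5p, at 0.953 (0.924 to 0.982), were lower in iron. let-7e, at 1.02, was above 1 with TMM and below 1 when libraries were scaled by total reads, and the interval of let-7d-3p (1.09, 0.983 to 1.21) included 1. The members called past the 25% limit were 2 of 9, let-7g and let-7i, both higher, where 17.9% of measured miRNAs were called higher and 19.9% lower. Those 2 of 9 are near the background share, so the count is no result about the family. Past 2-fold 0 of 9 were called, against a background of 0.797% higher and 0% lower. Of 9 ratios, 5 were above 1 with TMM, where 47.0% of measured miRNAs were above 1. With scaling by total reads, which lowers every dorsal log2 ratio by 0.13, 3 of 9 were above 1. The family sum ratio was 1.08 with TMM and 0.992 with total reads, so its direction depended on the scaling, whereas let-7f, let-7g and let-7i were above 1 under both. Oligodendrocyte miRNAs were lower in iron here, at 8812 CPM in iron dorsal against 11503 CPM in control dorsal, and their part in the member ratios was not tested.

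**Figure D2:**
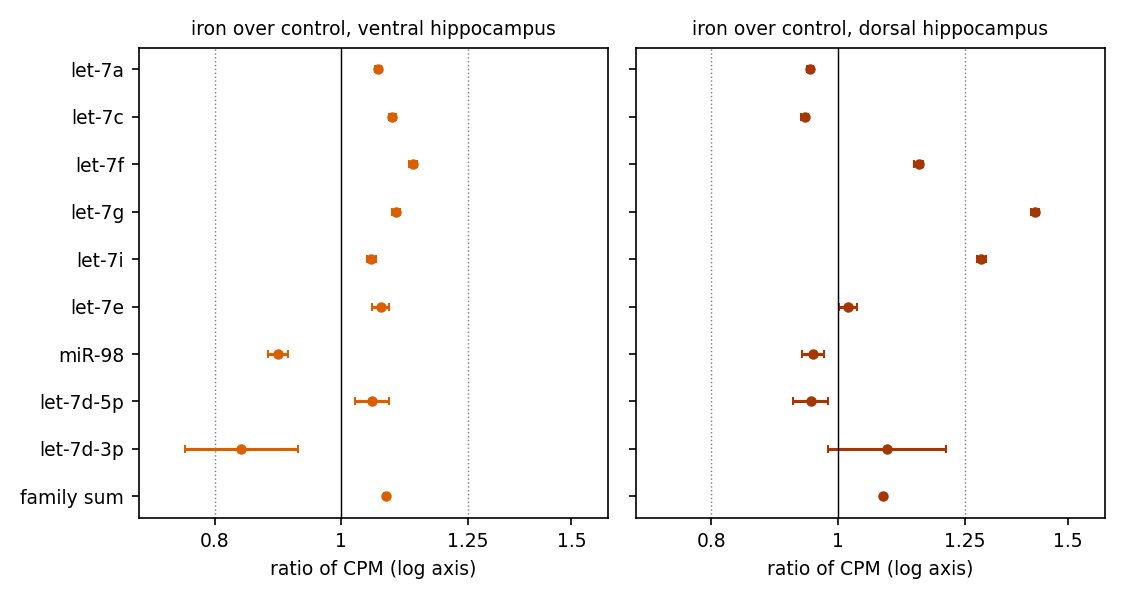
Ratio of CPM, iron over control, for each member and the family sum in ventral (left) and dorsal (right) hippocampus, on a log axis with 95% Clopper-Pearson intervals for counting error and dotted lines at 25% higher and 20% lower. In dorsal hippocampus let-7g (1.42) and let-7i (1.29) lie past the line while let-7a, let-7c, miR-98 and let-7d-5p lie below 1.

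Between regions of untreated piglets, dorsal over ventral, the family sum ratio was 1.13 (1.13 to 1.14). let-7a, at 1.23 (1.22 to 1.23), let-7d-5p, at 1.21 (1.177 to 1.247), and let-7c, at 1.18 (1.17 to 1.19), were the highest. let-7g, at 1.02, and let-7i, at 1.03, were near 1, let-7g falling below 1 with total reads and both with unmerged rows. Past the 25% limit 0 of 9 members were called, where 12.4% of measured miRNAs were called higher and 14.3% lower. Past 2-fold the count was also 0 of 9, against 0.398% higher and 1.59% lower.

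Between regions of iron-treated piglets, dorsal over ventral, the family sum ratio was 1.14 (1.13 to 1.14). Here let-7g, at 1.31 (1.30 to 1.32), and let-7i, at 1.26 (1.251 to 1.272), were the highest, and let-7a stood at 1.10 and let-7c at 1.02. All 9 ratios were above 1 with TMM, where 51.4% of measured miRNAs were above 1. With total reads 6 of 9 were above 1, and with the authors' RPM 6. These members called past the 25% limit, 2 of 9, compare with 11.6% of measured miRNAs called higher and 16.3% called lower, and with total-read scaling 0 of 9 passed. Past 2-fold 0 of 9 were called, against 0.398% in each direction. The members high in dorsal hippocampus therefore differed by treatment, with let-7a, let-7d-5p and let-7c leading in control and let-7g and let-7i leading in iron, and no test of that contrast could be made. The 4 comparisons share libraries and are not independent of one another.

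An additive model of treatment and region over all 4 libraries, tested with edgeR's quasi-likelihood test, called 0 of 251 miRNAs for iron and 0 of 251 for region, or 0% each, at an adjusted p of 0.05. For iron, 11 miRNAs had an unadjusted p under 0.05, and DESeq2 called 1 and limma 0. For region, 8 had an unadjusted p under 0.05, and DESeq2 and limma called 0. None of the 9 members was among these 11 or 8. For iron, let-7g had the largest member difference, a log2 fold change of 0.32 with a standard error of 0.18 (edgeR adjusted p = 0.929), followed by let-7i at 0.22 and let-7f at 0.19. The others lay between -0.11 for miR-98 and 0.06 for let-7e, and adjusted p over members ran from 0.929 to 0.994. For region, dorsal over ventral, all 9 fitted log2 differences were above 0, led by let-7a at 0.22 (edgeR adjusted p = 0.996), with a median of 0.18 for members and 0.0017 for all measured miRNAs. With total reads 7 of the 9 were above 0, and with unmerged rows 8. The fitted iron differences were above 0 for 7 of 9 members with TMM and for 3 of 9 with total reads. With TMM their median was 0.023 for members and 0.0013 for all measured miRNAs. The model has 1 residual degree of freedom and both regions came from the same group of 4 piglets, so p-values measure only the spread between these libraries and are too small for iron.

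Shares within the family do not depend on how libraries are scaled. let-7a made up 28.5% of family reads in iron ventral against 29.0% in control ventral, and 27.6% in iron dorsal against 31.4% in control dorsal. let-7c made up 21.1% in iron ventral against 20.9% in control ventral, and 18.9% in iron dorsal against 21.7% in control dorsal. let-7g made up 15.5% in iron ventral against 15.2% in control ventral, and 17.8% in iron dorsal against 13.6% in control dorsal. For these 3 members the ventral libraries lay within 1 percentage point of each other, and the dorsal libraries lay on either side of them. let-7i followed let-7g, with 11.7% in iron ventral against 12.0% in control ventral, and 13.0% in iron dorsal against 10.96% in control dorsal, while let-7f stayed between 15.3% and 16.3%. Of the lesser guides, let-7d-5p followed let-7a and let-7c. It had 0.875% in iron ventral against 0.897% in control ventral, and 0.843% in iron dorsal against 0.958% in control dorsal. let-7e and miR-98 did not follow this pattern. let-7e had 3.53% in iron ventral against 3.56% in control ventral, and 3.25% in iron dorsal against 3.46% in control dorsal. miR-98 had 2.42% in iron ventral against 2.92% in control ventral, and 2.22% in iron dorsal against 2.52% in control dorsal, lower in iron in both regions.

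Set against each other, let-7g and let-7i together had 54.7 reads for every 100 reads of let-7a and let-7c in iron ventral (54.5 to 55.0) and 54.6 in control ventral (54.4 to 54.9). In iron dorsal they had 66.3 (66.0 to 66.6), against 46.3 in control dorsal (46.1 to 46.5). The ventral intervals overlapped and the dorsal ones did not. The pairs were put together after their values were seen.

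**Figure D3:**
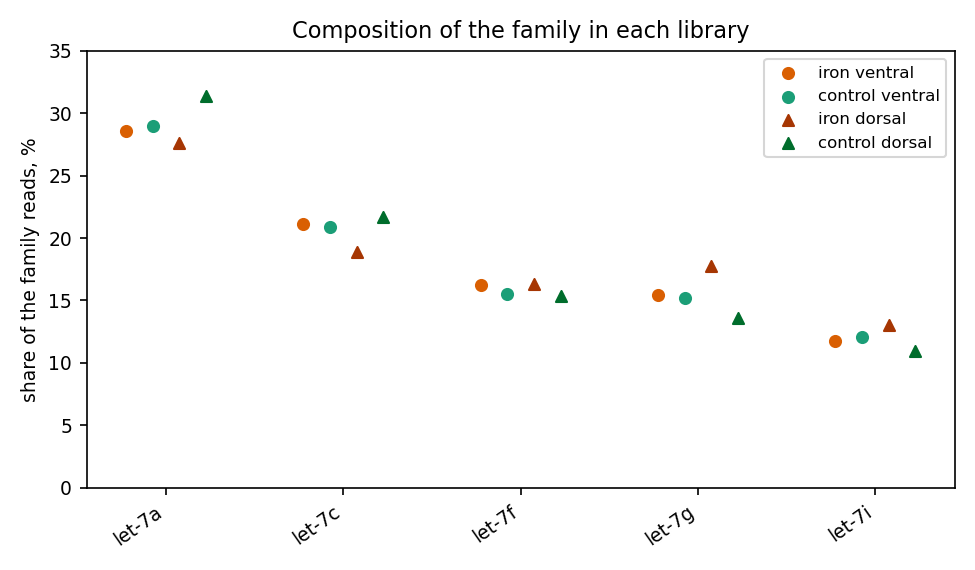
Share of the summed family reads taken by the 5 most abundant members in each library, in percent, with circles for ventral and triangles for dorsal hippocampus. Iron ventral and control ventral nearly coincide, while iron dorsal is lowest for let-7a and let-7c and highest for let-7g and let-7i.

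The table of conserved sequences allowed this composition to be read again from rows of exact sequence. Its 102 rows of let-7 name or sequence summed to 903049 reads in iron ventral, 988991 in control ventral, 888030 in iron dorsal and 942615 in control dorsal. The annotated members held 1.02 to 1.03 times as many. Reads in this table were divided between rows, reverse complements included: the let-7a sequence and its reverse complement, listed for another species, had identical values in all 4 libraries, and so did 2 further pairs. Such reverse-complement rows, 5 in number, took 13.8% to 15.8% of the let-7 reads, so a value of a single row is no count of that sequence.

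With rows of 1 sequence summed, the annotated table held 0.997 to 1.01 times as many reads of let-7d-5p as the conserved table, and 1.05 to 1.18 times as many of the other guides except let-7c. For let-7c it held 2.57 to 2.69 times as many. The let-7b sequence, without a pig entry, held 146875 reads in iron ventral, 164640 in control ventral, 134206 in iron dorsal and 148256 in control dorsal, or 15.5% to 17.1% of guide-arm let-7 reads there. Relative to let-7a, let-7b carries A17G beside the A19G of let-7c, and the conserved reads of both together came to 220332 in iron ventral and 242505 in control ventral, and to 200374 in iron dorsal and 230404 in control dorsal. The annotated let-7c reads were 195364 in iron ventral and 209808 in control ventral, and 171491 in iron dorsal and 210750.0 in control dorsal, between the sum and let-7c alone. Whether let-7b reads were counted as let-7c was not tested.

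Most member ratios were close in both tables. With the same scaling, the conserved sequences gave for iron over control in dorsal hippocampus 1.41 for let-7g, 1.29 for let-7i, 1.16 for let-7f, 0.947 for let-7a and 0.933 for let-7c. The let-7b sequence had a ratio of 1.05 in ventral and of 1.05 in dorsal hippocampus. In the conserved table let-7g and let-7i had 71.5 reads for every 100 reads of let-7a and let-7c in iron ventral against 71.5 in control ventral, and 84.9 in iron dorsal against 59.3 in control dorsal, the same order as in the annotated table.

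The passenger arms were read from the conserved table, since let-7d is the member with both arms annotated in pig. Across 11 precursors the 3p arms took 0.684% of both arms' reads in iron ventral (0.667 to 0.702) against 0.881% in control ventral (0.863 to 0.900). In dorsal hippocampus they took 0.632% in iron (0.615 to 0.649) against 0.683% in control (0.666 to 0.700). Control ventral had the highest 3p share at all 11 precursors, and the iron library was below its control at 11 of 11 precursors in ventral and at 7 of 11 in dorsal hippocampus. The sum of miR-182, miR-183, miR-96-5p and miR-429 was also highest in control ventral, at 457 CPM against at most 153 CPM elsewhere. Its part in the arm shares was not tested. Precursors of let-7a and of let-7f share a guide sequence, so these 11 are not independent. The 3p arms of let-7a and let-7f carry the numbers used in other species. Pig genes of the same number need not be the same loci. Among 42 other pig precursors with at least 100 reads of the lesser arm in every library, control ventral was highest at 9, and iron was below control at 17 in ventral and at 21 in dorsal hippocampus. Held to the same minimum, 8 let-7 precursors remained, without let-7a-2, let-7c and let-7g. Control ventral was highest at 8 of these 8, and iron was below control at 8 in ventral and at 4 in dorsal hippocampus.

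let-7d had by far the highest passenger share. In the annotated table it was 7.80% in iron ventral (7.25 to 8.38) against 9.63% in control ventral (9.06 to 10.22), and 8.44% in iron dorsal (7.86 to 9.06) against 7.46% in control dorsal (6.95 to 7.99). In the conserved table, used for the other precursors, the let-7d share ran from 6.66% in control dorsal to 8.41% in control ventral. There let-7i came next in every library but iron dorsal, with 1.72% in iron ventral (1.64 to 1.80) against 2.11% in control ventral (2.03 to 2.20), and 1.05% in iron dorsal (0.990 to 1.11) against 1.92% in control dorsal (1.84 to 2.01). let-7g showed the same order of libraries at a lower level, with 0.137% in iron ventral against 0.192% in control ventral, and 0.0686% in iron dorsal (0.0556 to 0.0838) against 0.147% in control dorsal (0.126 to 0.171). For let-7g and let-7i, the guide and the passenger moved in opposite directions in dorsal hippocampus. Iron over control, let-7i-3p had a ratio of 0.697 (0.647 to 0.750) and let-7g-3p of 0.654 (0.504 to 0.845), while their guides were at 1.29 and 1.42. let-7g-3p rested on 96 reads in iron dorsal and 170.0 in control dorsal. let-7a-1, numbered as in other species, went the reverse way, with its passenger at 1.26 (1.11 to 1.43) and the let-7a guide at 0.952. Of the 11 passengers, 6 lay below 1 in dorsal hippocampus and 5 above. Intervals excluded 1 for 3 of the 6, let-7g-3p, let-7i-3p and miR-98-3p (0.761, 0.635 to 0.911), and for 3 of the 5, let-7a-1-3p, let-7b-3p (1.42, 1.24 to 1.63) and let-7f-2-3p (1.30, 1.21 to 1.38). In ventral hippocampus 10 of the 11 passengers lay below 1, 9 of them with intervals excluding 1. No matching share of passengers outside the family stands beside these ventral and dorsal counts, so they are no result about let-7 passengers as a set. Also in ventral hippocampus, let-7g-3p (0.785) and let-7i-3p (0.852) were opposite to their guides, at 1.10 and 1.05. Opposite directions were thus particular neither to these members nor to dorsal hippocampus.

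**Figure D4:**
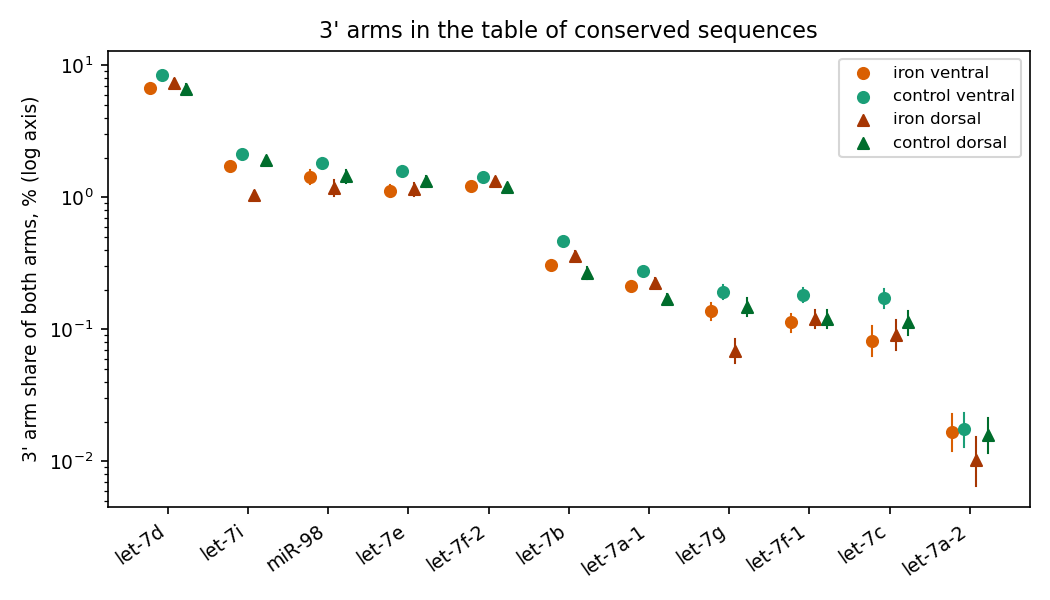
Share of the 3p arm in the reads of both arms for 11 let-7 precursors, in percent on a log axis, with 95% Clopper-Pearson intervals. Control ventral is highest at every precursor, and iron dorsal is well below the other libraries for let-7i (1.05%) and let-7g (0.0686%).

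The 3′ ends of the guides also differed between libraries. For 9 guide sequences, let-7b included, the conserved table lists a 22-base row and a 21-base row that lacks the last base. The reads of the 21-base row as a percentage of both rows serve as an index of a missing last base. Since reads were divided between rows, the index is not the fraction of shortened molecules. let-7a had an index of 32.2% in iron ventral against 35.2% in control ventral, and 37.8% in iron dorsal against 27.1% in control dorsal. let-7g had 20.3% in iron ventral against 22.3% in control ventral, and 24.8% in iron dorsal against 16.97% in control dorsal. All 9 guides had 1 order, with iron dorsal highest, then control ventral, iron ventral and control dorsal. The median over the guides was 27.1% in iron ventral against 29.4% in control ventral, and 32.4% in iron dorsal against 23.2% in control dorsal. This order was noticed after the values were seen, and members that share reads are not independent. It did not extend to every length or arm: over all 18 let-7 pairs that differ by the last base it held in 12. For the pair of 21 and 20 bases, let-7a had 40.6% in iron ventral against 38.0% in control ventral, and 39.96% in iron dorsal against 41.9% in control dorsal. let-7d-5p at that length had 35.9% in iron ventral against 33.0% in control ventral, and 33.1% in iron dorsal against 35.7% in control dorsal. At that length control ventral was lowest in both and iron dorsal lay below control dorsal. Another 22-base row, with a different last base, also extends the 21-base let-7a row. Against it the index was 70.5% in iron ventral against 72.4% in control ventral, and 69.7% in iron dorsal against 67.6% in control dorsal. The order thus holds for the 9 guide pairs but not by length alone, and the index is no general measure of length.

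Among 161 such pairs of 22 and 21 bases outside the family, 41 (25.5%) had that order. In 106 of the 161 the index was higher in iron dorsal than in control dorsal. The median difference, iron minus control, was 8.73 percentage points for the let-7 guides and 1.38 points for the other pairs in dorsal hippocampus, and -2.05 points and -0.11 points in ventral hippocampus. The direction in dorsal hippocampus was thus shared by many other miRNAs, at a smaller median size. Some single pairs outside the family moved by a similar amount, with the same order of libraries. Of these, miR-26b had 36.77% in iron dorsal against 27.98% in control dorsal, and miR-411 had 34.6% against 25.6%. miR-138 went the other way, with 17.9% in iron dorsal against 25.6% in control dorsal. A shift of that size was therefore not particular to let-7.

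**Figure D5:**
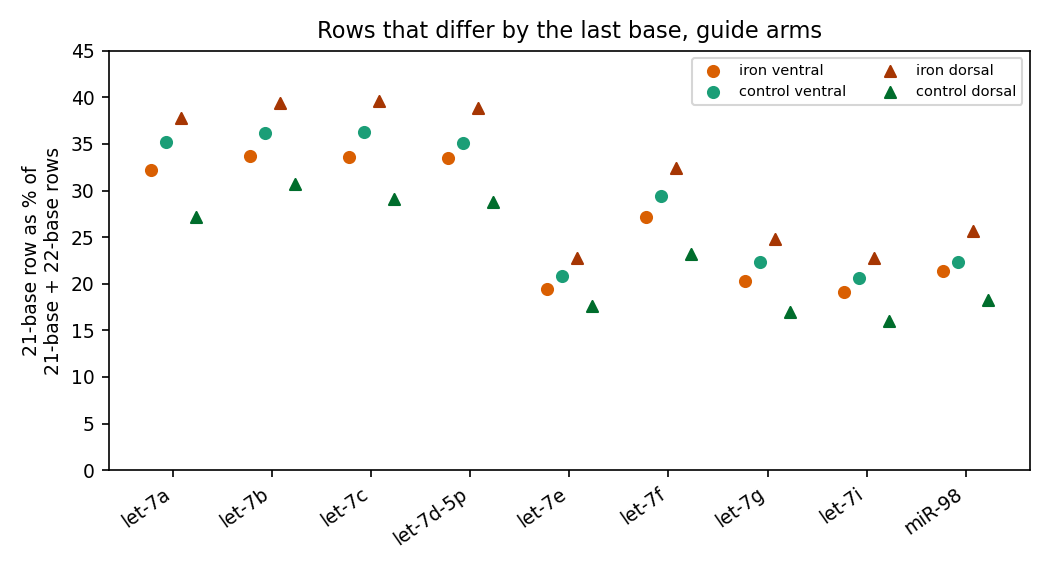
Reads of the 21-base row as a percentage of the 21-base and 22-base rows together, for 9 let-7 guide sequences in each library. At this length iron dorsal is highest and control dorsal lowest in every guide, for let-7a at 37.8% and 27.1%.

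Several let-7 genes lie beside other miRNA genes and can be made from 1 transcript with them. In the pig assembly Sscrofa11.1, all 10 annotated let-7 and miR-98 precursors were found, and neighbours were taken within 50000 bases. let-7c lies beside miR-99a, let-7a-1 beside miR-100 and miR-125b-1, and let-7e beside miR-99b and miR-125a. let-7a-2, let-7f-2 and let-7d lie together, let-7f-1 lies beside miR-98, let-7g beside miR-135-1, and let-7i has no miRNA neighbour in that window.

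The cluster partners were followed by the names miR-99a, miR-99b, miR-100, miR-125a and miR-125b, and 0 of these 5 were called by edgeR for iron or region. miR-99a, at the let-7c locus, had 114323 CPM in iron ventral against 94915 CPM in control ventral, and 132006 CPM in iron dorsal against 108818 CPM in control dorsal. It was thus higher in iron in both regions, at ratios of 1.2 in ventral and 1.21 in dorsal hippocampus, while let-7c was at 1.09 and 0.943. miR-100 was higher in iron at 1.13 in ventral and 1.23 in dorsal hippocampus. At the let-7e locus the partners went opposite ways and let-7e lay between them. miR-99b had ratios of 1.2 in ventral and 0.798 in dorsal hippocampus, miR-125a had 0.829 and 1.39, and let-7e had 1.07 and 1.02. miR-135, beside let-7g and added after the neighbours were looked up, had 239 CPM in iron ventral against 267 CPM in control ventral, and 131 CPM in iron dorsal against 242 CPM in control dorsal. It was lowest in iron dorsal, where let-7g was highest, with a log2 fold change for iron of -0.52 over both regions, standard error 0.25 (edgeR adjusted p = 0.929). miR-125b stood at 1.0 in ventral and 1.05 in dorsal hippocampus. Mature let-7a, let-7f, miR-125b and miR-135 can each come from more than 1 gene, so their levels belong to no single locus.

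Outside the family, the 5 of 242 measured miRNAs whose levels over the 4 libraries were most like the family sum were chosen by the root mean square difference of centred log2 CPM. They were miR-126-3p, an endothelial miRNA (0.0283), miR-148b-3p (0.0325), miR-26a (0.0361), miR-2411 (0.0513) and miR-222 (0.0579). miR-126-3p had 4621 CPM in iron ventral against 4311 CPM in control ventral, and 5028 CPM in iron dorsal against 4815 CPM in control dorsal. With 4 libraries, many profiles can look alike.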

How the data were processed

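Per the labels, total RNA was extracted with TRIZOL from hippocampal tissue pooled within each group, and small RNA was sequenced on an Illumina HiSeq instrument. Reads were trimmed with cutadapt 1.2.2, per the submitters' processing notes. Not given in the sources used here are the aligner, the counting program, the miRNA database release and the rule for dividing reads. The values the authors deposited as reads, per the file headers, are estimated counts, since many are fractions. The authors also deposited RPM, normalised per library, used here as an alternative scaling. Per-sample columns not used number 12.

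Reads were rounded to whole numbers, and rows of the annotated table with the same precursor and reads within 0.1% in every library were merged (321 of 326 remained). CPM were computed with TMM (edgeR 4.0.16, R 4.3.3). Measured miRNAs were those at 10 CPM or more in 1 library or more. Ratios carry exact conditional binomial (Clopper-Pearson) 95% intervals, and shares exact binomial ones (scipy 1.17.1). Calls needed a 25% or 2-fold difference and an interval excluding 1, the lower fold having been picked with the size of these changes known. edgeR's quasi-likelihood test with Benjamini-Hochberg adjustment was fitted with region and treatment as additive terms, with limma 3.58.1 and DESeq2 1.42.0 as alternatives. Both the intervals and the test were tested on simulated data. For the test, the simulated libraries were independent and the changes 2-fold or more, larger than those of the members. The simulation therefore says nothing about power for changes of the size seen here. In the conserved table, a row was assigned to a guide that contains it or is contained in it, or to a 3p arm with which it shares 17 bases, on either strand, and reads were scaled with the TMM factors of the annotated table. Other alternatives were scaling by total reads, by DESeq2 size factors or by TMM without let-7 or without miR-9, other minimums and unmerged rows. Every measured member row is described, and miRNAs outside the family were named as cluster partners (miR-135 added after the neighbours were looked up), cell type markers or by likeness to the family sum. The members and lists were chosen with earlier results of these data known. Predicted miRNAs were not used.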

Additional observations from a re-analysis of the deposited data

Results flagged for a closer look

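In 4 members the ratio moved in opposite directions in the 2 regions or the 2 treatments, and none of these differences was tested, since there is 1 library per combination. The log2 ratio of iron over control, dorsal minus ventral, was -0.16 for let-7a, -0.21 for let-7c and -0.15 for let-7d-5p, whose ratios lay below 1 in dorsal and above 1 in ventral hippocampus. These 3 were opposite under all 6 other scalings and row treatments, with intervals excluding 1 on both sides in 6 for let-7a, 6 for let-7c and 5 for let-7d-5p. miR-98 was higher in dorsal than in ventral hippocampus of iron-treated piglets and lower in that of control piglets, with log2 ratios 0.10 apart, iron minus control. That opposition held in 4 of the 6 alternatives, with intervals excluding 1 on both sides in 3, and not with total reads or the authors' RPM.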

How the results depend on the processing

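No paired analysis was possible because each combination is 1 library and the labels' numbers pair no samples, beyond the additive model of region and treatment, which already pairs the 2 regions of a group of piglets for the region difference. Leaving out a library was not run: it would leave the additive model with 0 residual degrees of freedom. Depth is not what limits the abundant guides, while let-7g-3p rests on 96 to 256 reads, and without replicates no ratio has an error between piglets. Alternatives without miR-9, all let-7 rows of the conserved table, conserved shares and arms, and the index at a higher minimum were chosen after seeing the data.

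The family sum ratio of iron over control in ventral hippocampus was 1.08, and it was 1.04 with total reads, 1.10 with DESeq2 size factors, 1.08 with TMM without let-7, 1.06 with unmerged rows, 1.07 without miR-9, 1.07 from conserved family rows and 1.07 from all conserved let-7 rows. In dorsal hippocampus it was 1.08, and in the same order 0.992, 1.09, 1.07, 1.10, 1.07, 1.14 and 1.09, with 1.01 from the authors' RPM. Dorsal over ventral in control piglets was 1.13, and in the same order 1.10, 1.15, 1.12, 1.08, 1.12, 1.09 and 1.12, with 1.16 from RPM. Dorsal over ventral in iron-treated piglets was 1.14, and it was 1.06 with total reads, 1.08 with RPM, 1.11 with TMM without let-7, 1.12 with unmerged rows, 1.12 without miR-9 and 1.16 from conserved family rows. The cause of the shifts was not tested.

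Members past the 25% limit were 1 (let-7g) with total reads and 1 (let-7g) with RPM for iron over control in dorsal hippocampus, against 2, and 1 (let-7a) with RPM for dorsal over ventral in control piglets, against 0. For dorsal over ventral in iron-treated piglets they were 0 with total reads, 0 with RPM and 1 (let-7g) with unmerged rows, against 2. Past 2-fold the count was 0 in all 4 comparisons under every alternative run. Calls for iron among all miRNAs, 0 with edgeR and TMM, were 2 with total reads, 2 with DESeq2 size factors, 3 with no minimum, 2 with unmerged rows and 1 with the DESeq2 Wald test. For region they were 3, 3, 4 and 3 under the first 4 of these. Members called numbered 0 throughout, with the lowest member adjusted p between 0.693 and 0.991 for iron and between 0.974 and 0.999 for region.

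From the conserved table, let-7g and let-7i made up 25.4% of guide reads in iron ventral against 25.3% in control ventral, and 28.6% in iron dorsal against 23.1% in control dorsal. There the let-7d-3p share was 6.75% in iron ventral against 8.41% in control ventral, and 7.34% in iron dorsal against 6.66% in control dorsal. A minimum of 1000 reads removed none of the 9 guides and so could not change their order in the end index.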
